A study of Mus musculus with 11 samples.

Results

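Genes that encode IFIT proteins, IFITM proteins, MX GTPases and viperin were examined in the hearts of Pde2A-/- and Pde2A+/+ mouse embryos. The members were taken by name, as Ifit1, Ifit2, Ifit3, Ifit3b, Ifitm1, Ifitm2, Ifitm3, Mx1, Mx2 and Rsad2, and make 10 of the 55487 genes in the count files and 10 of the 24177 genes that passed the count filter, so that no member was lost. RNA-seq was performed on isolated E14.5 hearts, 1 library per heart, from 5 Pde2A-/- embryos (replicates A, B, 14, D and 15) and 6 Pde2A+/+ embryos (replicates 7, 11, 6, 8, H and E). Both genotypes carry the B6; 129P2 background of the Pde2A tm1Dgen line, a constitutive allele bred from heterozygous parents, and the labels name no treatment, litter or batch. The heart was sequenced whole, so that fewer cells of a type and less RNA per cell cannot be told apart.

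Interferons are secreted proteins that a cell releases on sensing foreign or misplaced nucleic acid, and through their receptors, the kinases bound to these and factors such as IRF9 they switch on a large set of genes at a response element in the promoter. The proteins studied here are the effectors at the end of that route. IFIT proteins bind viral RNA that lacks the marks of host mRNA, IFITM proteins sit in membranes and hinder the fusion of viral envelopes, MX proteins are dynamin-like GTPases that trap viral components, and viperin, the product of Rsad2, makes a chain-terminating nucleotide. In uninfected tissue most of these genes are known to be low, though some Ifitm genes are also made without interferon.

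The main readout was the number of reads on the sense strand of each gene, given here as CPM, the counts scaled to a common library size after normalization by TMM, the trimmed mean of M values. Reads on the sense strand of genes numbered 35865537 to 42835382 per heart. Another 19.6% to 22.4% of reads were counted on no gene. Reads that mapped to several places are among these and made 10.9% to 13.2% of the same total. Cardiomyocyte genes summed to 39140 to 45560 CPM in Pde2A-/- hearts and 38620 to 51100 CPM in Pde2A+/+ hearts, so the defining genes of the labelled tissue were high in every heart. Pde2a itself had 7 counts in all 11 hearts, so the genotype labels could not be checked on the targeted gene. Pde2A+/+ replicate 7 stood apart: 10 thymus genes, listed after the values were seen, summed to 182 CPM in it and to 0.194 to 0.544 CPM in the other 10 hearts. Values of single members that this heart moved are given with and without it, but correlations only with it.

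Of the 10 genes, 7 were higher in Pde2A-/- hearts and passed both thresholds, an adjusted p under 0.05 and at least a doubling (edgeR's quasi-likelihood test, Benjamini-Hochberg over all genes tested), against 2.21% of all genes. These were Ifit1, Ifit3, Ifit3b, Ifitm3, Mx1, Mx2 and Rsad2, with rises between 4.08-fold and 19.7-fold. Ifit2, Ifitm1 and Ifitm2 were not called. The same 7 genes passed the adjusted p alone, against 8.93% of all genes, and 0 members were lower at that threshold, against 5.67% of all genes. In 7 of the 10 members every Pde2A-/- heart lay above every Pde2A+/+ heart, which held for 5.38% of all genes. These were the 7 called genes, and since the calls came from the same hearts, the separation adds no separate evidence. The 10 members had a median log2 fold change of 2.48, and all genes tested had one of -0.02.

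**Figure D1:**
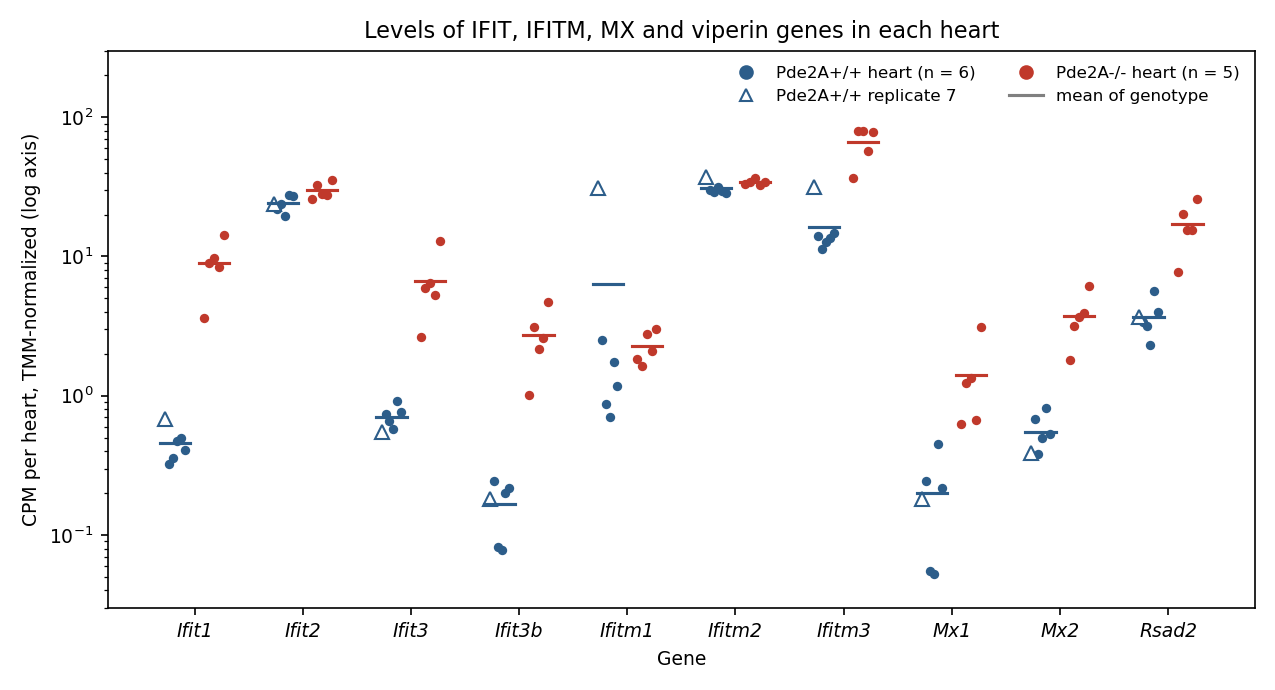
TMM-normalized CPM on a log axis for each gene in each heart, with Pde2A+/+ hearts in blue, Pde2A-/- hearts in red and a bar at the mean of each genotype. The genotypes separate for Ifit1, Ifit3, Ifit3b, Ifitm3, Mx1, Mx2 and Rsad2 and overlap for Ifit2, Ifitm1 and Ifitm2, and Pde2A+/+ replicate 7 (open triangle) is the highest of its genotype at all 3 Ifitm genes, at 31.1, 37.3 and 31.4 CPM.

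The promoters are shown because the interferon-stimulated response element is the site through which these genes are known to be switched on, and the number of its copies differs between the members. The windows come from RefSeq on GRCm38.p6 and run from 250 bases before the annotated transcript start to 30 bases after it, 5′ to 3′ along the gene. Capitals mark the core of the element, searched on both strands as GAAA, any 2 bases and GAAA. Ifit1, Ifit3, Ifit3b and Ifitm3 hold 2 cores each, and Rsad2 and Ifitm2 hold 1.
Ifit1 (chr19:34640639-34640918, plus strand): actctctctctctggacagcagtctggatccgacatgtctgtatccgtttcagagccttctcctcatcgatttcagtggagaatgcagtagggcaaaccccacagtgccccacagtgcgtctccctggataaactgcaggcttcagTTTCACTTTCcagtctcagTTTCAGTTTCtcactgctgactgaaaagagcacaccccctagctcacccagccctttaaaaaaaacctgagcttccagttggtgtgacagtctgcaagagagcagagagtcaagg
Ifit3 (chr19:34583279-34583558, plus strand): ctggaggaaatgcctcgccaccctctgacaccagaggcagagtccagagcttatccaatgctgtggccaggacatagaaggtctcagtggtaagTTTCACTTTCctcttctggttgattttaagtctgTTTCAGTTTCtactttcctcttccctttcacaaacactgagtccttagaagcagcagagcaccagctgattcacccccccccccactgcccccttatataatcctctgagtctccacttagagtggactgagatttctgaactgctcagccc
Ifit3b (chr19:34607707-34607986, plus strand): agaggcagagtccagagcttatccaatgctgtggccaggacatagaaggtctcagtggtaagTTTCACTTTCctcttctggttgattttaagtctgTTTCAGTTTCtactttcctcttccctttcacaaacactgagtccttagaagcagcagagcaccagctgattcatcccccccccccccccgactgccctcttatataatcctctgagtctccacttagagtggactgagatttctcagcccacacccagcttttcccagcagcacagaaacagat
Rsad2 (chr12:26456423-26456702, minus strand): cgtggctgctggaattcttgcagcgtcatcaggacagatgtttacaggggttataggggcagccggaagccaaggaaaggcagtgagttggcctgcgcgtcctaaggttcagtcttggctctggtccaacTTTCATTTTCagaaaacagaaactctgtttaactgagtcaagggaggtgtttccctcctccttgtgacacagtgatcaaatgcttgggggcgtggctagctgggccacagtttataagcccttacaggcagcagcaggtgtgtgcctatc
Ifitm3 (chr7:141010715-141010994, minus strand): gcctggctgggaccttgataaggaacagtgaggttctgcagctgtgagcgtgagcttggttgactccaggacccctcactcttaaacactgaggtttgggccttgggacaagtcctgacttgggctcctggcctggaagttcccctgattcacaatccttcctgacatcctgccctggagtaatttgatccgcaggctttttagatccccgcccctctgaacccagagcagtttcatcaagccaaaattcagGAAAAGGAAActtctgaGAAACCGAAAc
Ifitm2 (chr7:140955932-140956211, minus strand): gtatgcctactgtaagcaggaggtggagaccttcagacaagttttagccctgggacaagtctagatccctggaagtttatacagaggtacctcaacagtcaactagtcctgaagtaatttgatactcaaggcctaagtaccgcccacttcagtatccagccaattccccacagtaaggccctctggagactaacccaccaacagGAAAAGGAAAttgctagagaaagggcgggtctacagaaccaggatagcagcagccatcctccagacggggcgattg

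The whole table holds 32851 promoter windows of 300 bases, 250 before the start and 50 after it, and 3.44% of them hold the core, while 0.23% hold 2 or more. Windows were matched for 8 members (9 windows, since Ifit2 has 2), of which 6 hold a core and 4 hold 2. Mx1 and Mx2 have no window in the table. Neither window of Ifit2 nor that of Ifitm1 has these letters. With the first transcribed base as 1, the cores of Ifit1 begin at -104 and -85, those of Ifit3 at -156 and -122, those of Ifit3b at -188 and -154, and that of Rsad2 at -120. Ifitm3 differs in that its cores begin at 3 and 20, inside the transcript, and Ifitm2 has its core at -46. The windows of Ifit3 and Ifit3b are near copies, with 259 of 260 aligned bases identical (99.6%). This count leaves out insertions, deletions and the unaligned ends of the windows.

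The gamma activated site, searched as TTCNNNGAA on both strands, is in 8.30% of all windows and in those of Ifit2 (from -241) and Ifitm3 (from 14, sharing letters with the core that begins at 20). The cAMP response element, TGACGTCA, is in 1.79% of all windows and in 0 of the 8 members. A core also stood before genes that did not pass. The window of Ifitm2 holds 1 core and its log2 fold change was 0.14, and Ifit1bl2, transcribed away from Ifit1 on the other strand, has a window that overlaps that of Ifit1 and holds 2 cores, with a log2 fold change of 0.30 (adjusted p = 0.272, edgeR's quasi-likelihood test). Conversely, the windows of Cmpk2 and Ifitm6 held no core, and both genes passed. Their log2 fold changes were 1.47 (adjusted p = 2.92e-05) and 2.41 (adjusted p = 0.00106, edgeR's quasi-likelihood test). The whole windows of Ifitm1 and Ifitm6 lie inside the bounds that GENCODE M21 gives these genes. Sequence before the outermost starts of these genes was therefore not searched. All matches describe letters in a window and not binding.

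**Figure D2:**
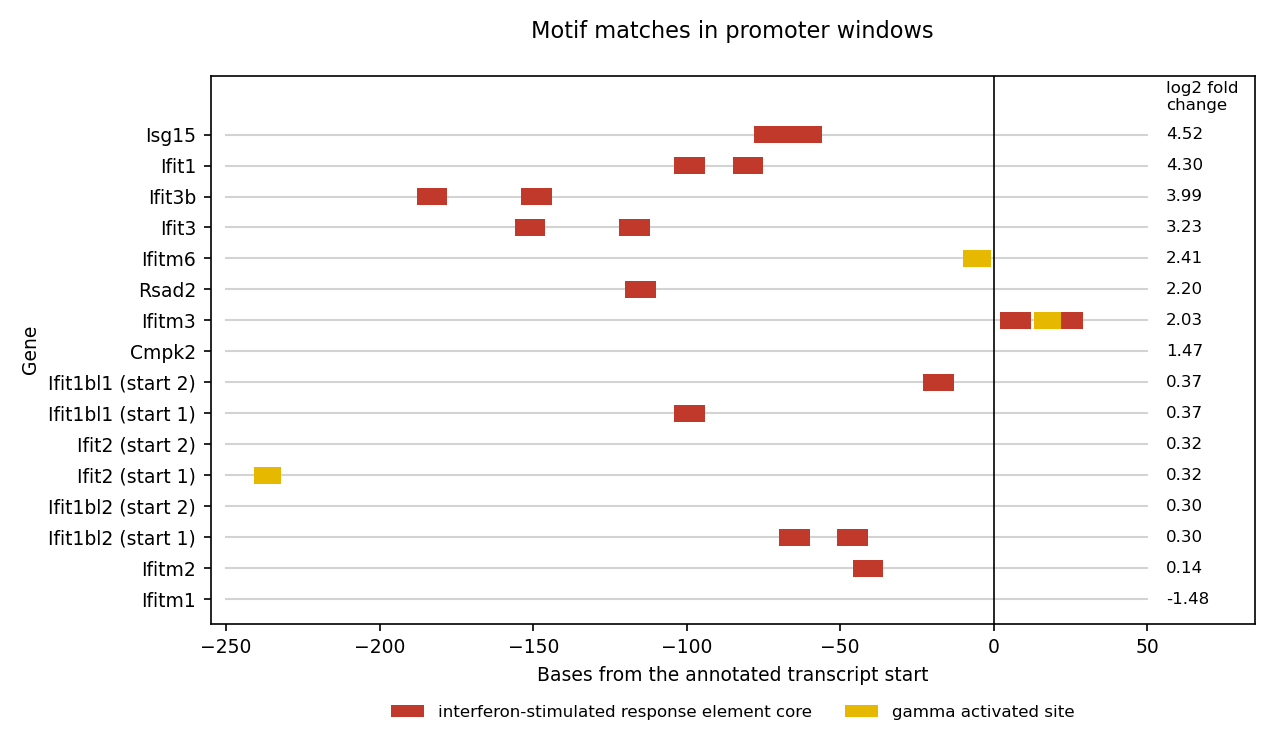
Matches of the interferon-stimulated response element core (red) and the gamma activated site (yellow) along promoter windows, in bases from the annotated transcript start, for 8 members and, for comparison, Isg15, Ifitm6, Cmpk2, Ifit1bl1 and Ifit1bl2, ordered by log2 fold change at the right. Windows with 2 cores stand at 4.30, 3.99, 3.23 and 2.03 among the members, but also at 0.30 for Ifit1bl2. Ifitm6 and Cmpk2, without a core in the window shown, stand at 2.41 and 1.47.

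The Ifit genes lie together on chromosome 19, and their rises ran from the largest of the members to almost none. Ifit1 (ENSMUSG00000034459, GRCm38 chr19:34640871-34650009, plus strand) encodes a protein that binds capped RNA without the methyl marks of the host. It had 3.63, 9.02, 9.83, 8.41 and 14.3 CPM in Pde2A-/- replicates A, B, 14, D and 15, and from 0.326 to 0.678 CPM with a median of 0.439 in the 6 Pde2A+/+ hearts. Replicate A was the lowest and replicate 15 the highest of the Pde2A-/- hearts, and the genotypes did not overlap. The means were 9.04 ± 3.82 (SD, n = 5) and 0.456 ± 0.127 CPM (SD, n = 6), a log2 fold change of 4.30 (standard error 0.31, 95% interval 3.63 to 4.97, edgeR's quasi-likelihood test, adjusted p = 4.59e-06), or 19.7-fold.

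Ifit3 (ENSMUSG00000074896, chr19:34583531-34588731, plus strand) encodes a partner of other IFIT proteins, and Ifit3b (ENSMUSG00000062488, chr19:34607970-34613401, plus strand) is its close copy. Ifit3 had 2.64, 5.95, 6.42, 5.30 and 12.8 CPM in Pde2A-/- replicates A, B, 14, D and 15, and 0.548 to 0.920 CPM (median 0.696) in Pde2A+/+ hearts. Ifit3b had 1.02, 3.09, 2.17, 2.58 and 4.74 CPM in the same order, and 0.0784 to 0.245 CPM (median 0.191) in Pde2A+/+ hearts. Both were lowest in replicate A and highest in replicate 15 among Pde2A-/- hearts, with no overlap of the genotypes. For Ifit3 the log2 fold change was 3.23 (standard error 0.33, 95% interval 2.53 to 3.94, adjusted p = 4.04e-05, edgeR's quasi-likelihood test) and for Ifit3b it was 3.99 (standard error 0.39, 95% interval 3.15 to 4.83, adjusted p = 3.03e-05).

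The split of reads between these copies is uncertain. Of all 50-base words in the exons of Ifit3, 51.2% also occur in Ifit3b, and 44.5% of those of Ifit3b occur in Ifit3, and reads that map to more than 1 place are in neither count. The ratio of Ifit3b to Ifit3 counts was 0.337 to 0.520 in Pde2A-/- hearts and 0.125 to 0.333 in Pde2A+/+ hearts, where Ifit3b had at most 9 counts in a heart. These ranges do not meet, but their gap is narrow, and the difference was not tested.

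Ifit2 (ENSMUSG00000045932, chr19:34550694-34576419, plus strand), which encodes an RNA-binding relative that also takes part in cell death, had the highest level per kb of exon of the Ifit genes in both genotypes and the smallest fold change. It had 25.8, 32.7, 28.2, 27.6 and 35.4 CPM in Pde2A-/- replicates A, B, 14, D and 15, and 19.6 to 27.5 CPM (median 23.8) in Pde2A+/+ hearts. Only replicate A lay within the range of the Pde2A+/+ hearts. The log2 fold change was 0.32 (standard error 0.10, 95% interval 0.10 to 0.53) with an adjusted p = 0.0512 from edgeR's quasi-likelihood test, so Ifit2 did not pass. The adjusted p was 0.0181 with DESeq2 and reached 0.128 without Pde2A-/- replicate 15.

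The make-up of the family's counts was also set side by side. Ifit2 took 94.4% to 95.6% of the counts on the 4 Ifit members in Pde2A+/+ hearts and 52.6% to 78.0% in Pde2A-/- hearts. Replicate A gave the 78.0% and replicate 15 the 52.6%, and no Pde2A-/- heart reached the lowest Pde2A+/+ heart. These are shares of counts that are not divided by gene length, and the difference was not tested.

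**Figure D3:**
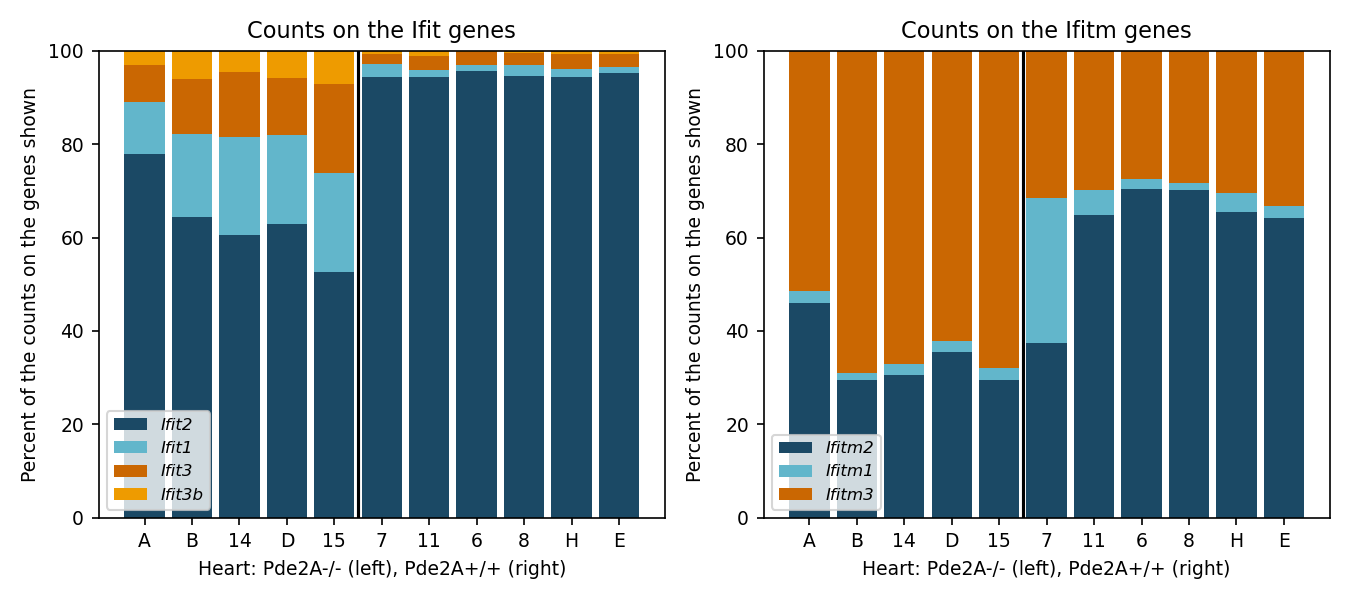
Share of each gene, in percent, among the counts on the 4 Ifit members (left) and the 3 Ifitm members (right), with 1 bar per heart and Pde2A-/- hearts left of the line. Ifit2 holds at least 94.4% of the bar in Pde2A+/+ hearts and at most 78.0% in Pde2A-/- hearts, and Ifitm3 holds at least 51.5% in Pde2A-/- hearts and at most 33.2% in Pde2A+/+ hearts.

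The Ifitm genes lie on chromosome 7, 39.4 to 39.5 Mb from Pde2a, and of these Ifitm3 rose. Ifitm3 (ENSMUSG00000025492, chr7:141009586-141010770, minus strand) encodes the endosomal member that blocks influenza entry. It had 36.9, 79.9, 80.2, 57.0 and 78.5 CPM in Pde2A-/- replicates A, B, 14, D and 15, and 11.2 to 31.4 CPM (median 13.8) in Pde2A+/+ hearts. Replicates A and D were the lowest of the Pde2A-/- hearts, and the 31.4 CPM belonged to Pde2A+/+ replicate 7, while the other 5 reached at most 14.8 CPM. The means were 66.5 ± 19.2 (SD, n = 5) and 16.3 ± 7.51 CPM (SD, n = 6), a log2 fold change of 2.03 (standard error 0.27, 95% interval 1.45 to 2.61, adjusted p = 0.000352, edgeR's quasi-likelihood test), and without replicate 7 it was 2.32.

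Ifitm1 (ENSMUSG00000025491, chr7:140967221-140969825, plus strand) encodes the member found at the cell surface and is low in the heart. It had 1.83, 1.63, 2.79, 2.11 and 3.0 CPM in Pde2A-/- replicates A, B, 14, D and 15, and 0.706 to 31.1 CPM (median 1.46) in Pde2A+/+ hearts. Pde2A+/+ replicate 7 alone had 31.1 CPM and the other 5 at most 2.5, so the genotypes overlapped and the direction turned on 1 heart. The log2 fold change was -1.48 (standard error 0.91, 95% interval -3.45 to 0.48, edgeR's quasi-likelihood test, adjusted p = 0.298) when that heart was kept and 0.70 (adjusted p = 0.161) without it.

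Ifitm2 (ENSMUSG00000060591, chr7:140954837-140955987, minus strand), whose protein like IFITM3 resides in endosomes, was high in both genotypes. It had 32.9, 34.2, 36.6, 32.5 and 34.2 CPM in Pde2A-/- replicates A, B, 14, D and 15, and 28.7 to 37.3 CPM (median 29.8) in Pde2A+/+ hearts, with the highest value again in replicate 7. The log2 fold change was 0.14 (standard error 0.07, 95% interval -0.01 to 0.29, adjusted p = 0.188, edgeR's quasi-likelihood test) in all hearts. Without replicate 7 it was 0.20 (adjusted p = 0.0309), and 5 of 5 Pde2A-/- hearts then lay above the Pde2A+/+ hearts, whose highest value was 31.4 CPM. Ifitm2 counts leave out part of the gene, since 40.9% of its exon bases lie in Gm45717 on the same strand and a read on 2 genes is counted on neither.

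In the Ifitm counts, Ifitm3 took 51.5% to 69.1% in Pde2A-/- hearts and 27.5% to 33.2% in Pde2A+/+ hearts. Replicate 7, at 31.5%, lay among the other Pde2A+/+ hearts in this share, while Ifitm1 took 31.2% of its counts. At the next 3 tested genes on each side of the cluster, Ifitm6, a further family member, rose from 0.111 ± 0.0511 (SD, n = 6) to 0.611 ± 0.241 CPM (SD, n = 5), a log2 fold change of 2.41 (adjusted p = 0.00106, edgeR's quasi-likelihood test), from at most 32 counts in a heart. Nlrp6, on the other side, had 7.98 CPM in replicate 7.

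The MX genes lie side by side on chromosome 16 and both rose from low levels. Mx1 (ENSMUSG00000000386, chr16:97447035-97462907, minus strand) encodes the nuclear MX protein of the mouse, active against influenza viruses. It had 0.626, 1.23, 1.34, 0.666 and 3.14 CPM in Pde2A-/- replicates A, B, 14, D and 15, and 0.0523 to 0.447 CPM (median 0.199) in Pde2A+/+ hearts. Replicates A and D were the lowest and replicate 15 the highest, and the genotypes did not overlap. The log2 fold change was 2.78 with the widest error of the called members (standard error 0.52, 95% interval 1.65 to 3.91, adjusted p = 0.00482, edgeR's quasi-likelihood test), and it was 2.25 without replicate 15.

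Mx2 (ENSMUSG00000023341, chr16:97535308-97560900, plus strand) encodes the cytoplasmic MX protein and is annotated in GENCODE M21 as a polymorphic pseudogene. Many laboratory strains are known to carry defective Mx alleles, and the alleles of these embryos were not analysed here. It had 1.80, 3.19, 3.66, 3.91 and 6.17 CPM in Pde2A-/- replicates A, B, 14, D and 15, and 0.384 to 0.820 CPM (median 0.512) in Pde2A+/+ hearts. Again replicate A was lowest and replicate 15 highest, with no overlap. The log2 fold change was 2.76 (standard error 0.29, 95% interval 2.13 to 3.39, adjusted p = 5.84e-05, edgeR's quasi-likelihood test). The ratio of Mx1 to Mx2 counts overlapped between the genotypes, at 0.170 to 0.509 and 0.105 to 0.545.

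Rsad2 (ENSMUSG00000020641, chr12:26442746-26456452, minus strand), the viperin gene, encodes an enzyme of the endoplasmic reticulum and lipid droplets. It had 7.70, 20.3, 15.6, 15.6 and 25.9 CPM in Pde2A-/- replicates A, B, 14, D and 15, and 2.33 to 5.67 CPM (median 3.52) in Pde2A+/+ hearts. Replicate A was lowest and replicate 15 highest, and the gap to the highest Pde2A+/+ heart, replicate H, was small for replicate A. The means were 17.0 ± 6.73 (SD, n = 5) and 3.70 ± 1.11 CPM (SD, n = 6), a log2 fold change of 2.20 (standard error 0.27, 95% interval 1.61 to 2.79, adjusted p = 0.000212, edgeR's quasi-likelihood test). Cmpk2, a mitochondrial nucleotide kinase that supplies the substrate of viperin and lies 12.8 kb away, rose by 1.47 on the log2 scale (adjusted p = 2.92e-05), from 4.42 ± 0.470 to 12.2 ± 2.79 CPM.

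**Figure D4:**
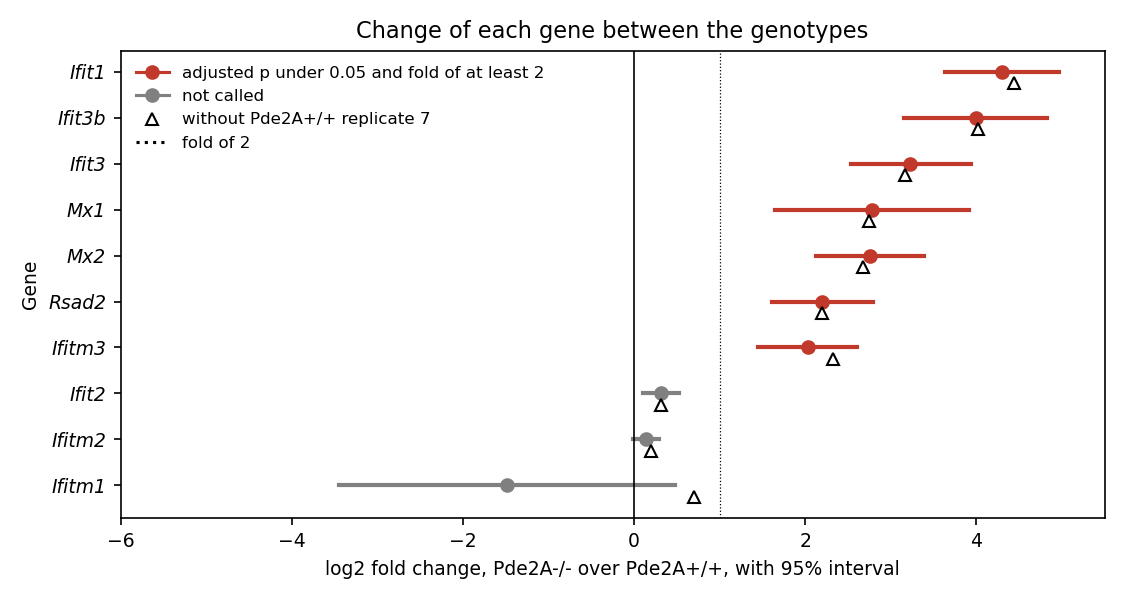
Log2 fold change of each gene, Pde2A-/- over Pde2A+/+, with its 95% interval; red marks the 7 called genes, grey the other 3, and open triangles the value without Pde2A+/+ replicate 7. The called genes range from 2.03 to 4.30, and leaving out replicate 7 turns Ifitm1 from -1.48 to 0.70.

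Divided by exon length, the order of the levels differed between the genotypes. In Pde2A+/+ hearts the mean was 47.2 CPM per kb for Ifitm2, 24.0 for Ifitm3 and 6.12 for Ifit2, followed by Ifitm1 at 5.80 (1.28 without replicate 7), Rsad2 at 0.853, Ifit3 at 0.401, Ifit1 at 0.172, Mx2 at 0.152, Ifit3b at 0.0836 and Mx1 at 0.0527. In Pde2A-/- hearts Ifitm3 came first, at 98.1 CPM per kb, ahead of Ifitm2 at 52.0 and Ifit2 at 7.62, then Rsad2 at 3.93, Ifit3 at 3.80, Ifit1 at 3.40, Ifitm1 at 2.08, Ifit3b at 1.36, Mx2 at 1.04 and Mx1 at 0.370. Ifitm3 was above Ifitm2 in 5 of 5 Pde2A-/- hearts and below it in 6 of 6 Pde2A+/+ hearts, though the ranges of these 2 genes overlapped across hearts. In Pde2A-/- hearts every gene from Rsad2 downward also overlapped in range with the next one, so that the order is not set beyond the spread there, and the ranges parted only between Ifitm2 and Ifit2 and between Ifit2 and Rsad2. In Pde2A+/+ hearts the ranges parted between Ifitm3 and Ifit2, Rsad2 and Ifit3, and Ifit3 and Ifit1, and all other neighbours in the order overlapped. Replicate 7 alone made Ifitm2 and Ifitm3 overlap, with 46.3 CPM per kb for Ifitm3 against a lowest Ifitm2 value of 43.8. That heart alone also made Ifit2 and Ifitm1 overlap, with 28.4 CPM per kb for Ifitm1 against a lowest Ifit2 value of 5.00. The levels of Ifitm2, Ifit3 and Ifit3b leave out shared reads and are therefore low by an unknown amount.

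The called members varied together between hearts. Pde2A-/- replicate A was the lowest of its genotype in 7 of 7 called members, with a mean deviation from the genotype mean of -1.02 on the log2 CPM scale, and replicate 15 the highest in 6 of 7, with a mean deviation of 0.87. Pde2A+/+ replicate H was the highest of its genotype in 4 of 7. As a description over the 11 hearts, with each heart taken relative to its genotype mean, the 21 pairs of called members had a median Pearson r of 0.76, from 0.25 for Ifitm3 and Mx2 to 0.90 for Ifit3 and Mx2. Ifit2, though not called, had a median r of 0.72 with the called members, whereas Ifitm2 had 0.10 and Ifitm1 0.31. The genes of a heart share its library, depth and composition, and no p is given.

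**Figure D5:**
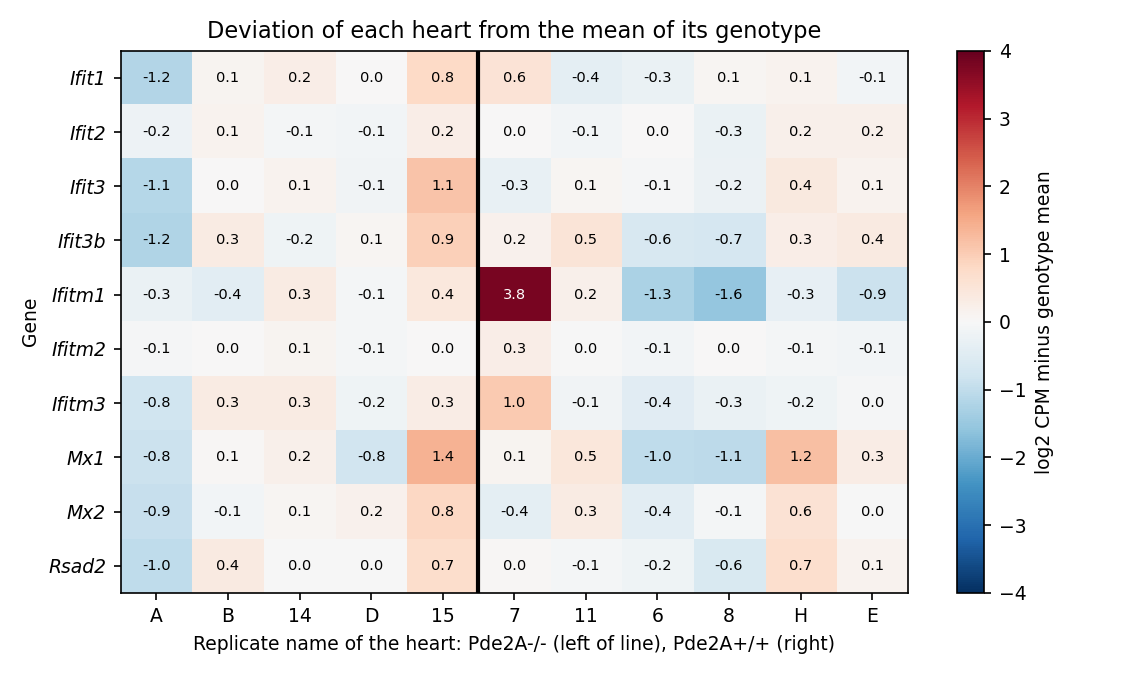
Deviation of each heart from the mean of its genotype, in log2 CPM, for each gene, with red above and blue below the mean. Column A is blue and column 15 red in all 7 called genes, and the value of 3.8 for Ifitm1 in Pde2A+/+ replicate 7 is the largest of the map.

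Among 14015 other genes whose mean was 1 CPM or more, 18.2% had r over 0.5 with the mean deviation of the called members, so a high r is common here. The 10 highest were Mki67 (0.95), Irf7 (0.94), Dennd4a (0.93), Trim34a (0.93), Angptl6 (0.93), Osmr (0.92), Wrn (0.92), Fkbpl (0.91), Dcaf12 (0.91) and Usp32 (0.90). Irf7, the factor that amplifies interferon production, also rose by 3.34 on the log2 scale (adjusted p = 1.45e-05, edgeR's quasi-likelihood test), while Trim34a fell by 0.59 (adjusted p = 0.0247). Mki67, a proliferation gene, rose by 0.47 (adjusted p = 0.00048).

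The rest of the route was read from lists written from general knowledge, with earlier results of these data known. Of 21 interferon genes, 18 had no read in any heart and the other 3, Ifnz, Ifng and Ifnl3, had 10, 2 and 1 counts over all 11 hearts, so a difference in ligand was not detectable at this depth. Of 12 receptor and signalling genes, 6 rose and 0 fell at an adjusted p under 0.05 (edgeR's quasi-likelihood test), against 8.93% of all genes higher, with a median log2 fold change of 0.21. They included Irf9 (1.66), Stat2 (0.64), Ifnar2 (0.33), Ifngr1 (0.26) and Jak2 (0.21). Irf9 and Stat2 act at the response element, and in both every Pde2A-/- heart lay above every Pde2A+/+ heart. Ifnar1, Jak1 and Tyk2 did not pass, with 0.12, 0.11 and 0.03.

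Of 16 genes for sensing and induction, 11 rose and 0 fell (median 0.49). For this and the next lists, 8.93% of all genes rose and 5.67% fell at an adjusted p under 0.05. Among those averaging 1 CPM or more over the hearts, the largest changes were those of Irf7 and of the RNA sensors Dhx58 (2.20) and Ifih1 (1.93), and below that level Zbp1, a nucleic acid sensor, had 2.39 (adjusted p = 0.000347, edgeR's quasi-likelihood test). Of 7 feedback inhibitors, 3 rose, namely Usp18 (4.20), which removes ISG15 and blocks the receptor, Socs3 (0.84) and Cish (0.82), and without Pde2A+/+ replicate 7 the count was 4. Of 42 other interferon-stimulated genes tested, 36 rose and 0 fell, with a median of 1.64. Of these, 27 also reached a fold of 2, against 2.21% of all genes. Without replicate 7, 38 rose. Isg15, a ubiquitin-like modifier, had the largest change, 4.52, followed by Ifi44 (4.16) and Oasl1 (3.82). Of 6 further Ifit and Ifitm genes, 1 rose, Ifitm6, while Ifit1bl1 and Ifit1bl2, which lie between the Ifit members, had 0.37 (adjusted p = 0.0913) and 0.30.

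The genes around the members were read next. Of 24 tested genes beside the 4 clusters, 4 rose at an adjusted p under 0.05, a threshold that 8.93% of all genes passed upward, and 0 fell, with a median log2 fold change of -0.06. Besides Ifitm6 and Cmpk2 these were Lipa, a lysosomal lipase (0.45, adjusted p = 0.000259, edgeR's quasi-likelihood test), and Ch25h, the cholesterol 25-hydroxylase, itself an antiviral enzyme (0.90, adjusted p = 0.0261). Of the 4 tested genes that lie within the clusters, 0 passed. Reads on the strand opposite to the members were few, from 0 at Mx1 to 184 at Ifit2 over all hearts.

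Cell type markers differed between the genotypes as well. All 13 macrophage genes rose at an adjusted p under 0.05 (median log2 fold change 0.99), a threshold that 8.93% of all genes passed upward. Their summed level was 259.8 to 369.2 CPM in Pde2A-/- hearts and 124.3 to 201.9 CPM in Pde2A+/+ hearts. Within Pde2A-/- hearts this sum was lowest in replicate A and highest in replicate 15, the same 2 hearts as for the called members. This order was not particular to macrophage genes. The cardiomyocyte sum was also lowest in replicate A (39140 CPM) and highest in replicate 15 (45560 CPM). The erythroid and fibroblast sums were lowest in replicate A too, and the endothelial sum in replicate D. Of 8 erythroid genes 7 rose, and Alas2 did not pass, with a log2 fold change of -0.60 (adjusted p = 0.221, edgeR's quasi-likelihood test). The 8 genes summed to 459.8 to 937.2 CPM in Pde2A-/- hearts and 107.6 to 489.4 CPM in Pde2A+/+ hearts. Alas2 alone averaged 124.3 and 189.0 CPM in these genotypes. Endothelial genes summed to 1294 to 1445 and 1079 to 1284 CPM, with 3 of 8 higher, and fibroblast genes to 4439 to 7644 and 3644 to 7446 CPM, with 3 of 6 higher. The lymphoid and plasmacytoid dendritic genes summed to at most 0.672 CPM in every heart but Pde2A+/+ replicate 7, which had 29.1. In that list Siglech, a plasmacytoid dendritic marker, fell by 1.43 on the log2 scale (adjusted p = 0.0392, edgeR's quasi-likelihood test), from at most 10 counts in a heart. Of the 12 cardiomyocyte genes, Tnni1, Myl4 and Ttn fell, by 0.41, 0.45 and 0.51, Nppa rose by 0.87, and the other 8 did not pass. The part of these cells in the rise of the members was not tested.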

How the data were processed

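The hearts, their genotypes and replicate names were taken from the labels. The libraries were stranded mRNA-seq, sequenced single-end. The authors counted reads per gene with STAR on GRCm38 (named mm10 as well in the submitters' processing notes) and deposited whole-number counts per gene for both strands, without normalization or filtering; the STAR version and annotation are not given in the sources used here. A read on several genes or places is in no count. Of the 2 stranded columns, the one holding more reads served throughout. Gene names, positions and exon lengths are from GENCODE M21 (55227 of 55487 identifiers matched).

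A gene entered the test with 10 or more reads summed across hearts (24177 genes). With edgeR 4.0.16 in R 4.3.3, genotypes were compared by the quasi-likelihood test with TMM normalization and Benjamini-Hochberg adjustment over all of them; a call needs an adjusted p under 0.05 and a fold of at least 2. Log2 CPM uses a prior count of 2. Nothing says whether embryos shared litters, so p-values measure the spread between these hearts. The members and lists were chosen with earlier results of these data known. The genes named are the members, the genes beside them, the 3 largest changes per list past the threshold with a mean of at least 1 CPM, the receptor, signalling and interferon genes, and the 10 genes most correlated with the called members. In all, 1 result of these lists is not reported here. Thymus genes, Zbp1 and the markers named singly, and the genes around the members that were shown in the promoter map, were chosen after values were seen. In a simulation of this comparison, a log2 change of 2 was given to 200 of 23719 genes, and 199 were recovered with 3 wrong calls. The changed genes were drawn from those with a mean over 1 CPM, so recovery at lower levels was not tested. The simulated spread followed the trend over all genes and not that of each gene. The alternatives were DESeq2 1.42.0, its size factors, filterByExpr, no filter, reads of both strands, the naming style of replicates (letter or number) as a covariate, other thresholds and each heart left out.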

Additional observations from a re-analysis of the deposited data

Results flagged for a closer look

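In 3 of the 20 sets of hearts examined (10 genes in 2 genotypes) 1 heart lay far from the others of its genotype by Dixon's criterion, which chance meets in about 1 of 20 sets. It was Pde2A+/+ replicate 7 each time. Ifitm1 had 4.96 log2 CPM there and -0.40 to 1.35 in the other 5 Pde2A+/+ hearts, Ifitm2 had 5.22 and 4.84 to 4.97, and Ifitm3 had 4.98 and 3.50 to 3.89. This heart also carried thymus genes at 182 CPM in sum, and the part of these in the Ifitm values was not tested. At the Ifit, Mx and Rsad2 genes no heart met the criterion.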

How the results depend on the processing

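The count of 7 called members was the same under all 20 alternatives, and each of the 7 passed the adjusted p in all 17 alternatives to the fit. The median log2 fold change of the members ran from 2.13 without Pde2A-/- replicate 15 to 2.66 without replicate A, and from 2.47 to 2.49 otherwise. Of 170 values of single members under an alternative, 161 kept their direction and their side of the threshold, 8 came to pass it and 1 reversed, Ifitm1, whose log2 fold change with a heart left out ran from -1.72 to 0.70, the latter without Pde2A+/+ replicate 7. Ifit2 passed in 7 of 17 alternatives (adjusted p from 0.0181 to 0.128) and Ifitm2 in 1 (adjusted p from 0.0309 to 0.357). Over all genes, 535 were called higher and 90 lower. The higher count was 202 at a fold of at least 4, 981 at a fold of at least 1.5, 330 at an adjusted p under 0.01 and 396 to 675 with a heart left out. The lower count was 57 with DESeq2, 37 with filterByExpr, which tests fewer genes, and 35 to 137 with a heart left out (65 without Pde2A+/+ replicate 7), the extremes without Pde2A-/- replicates 15 and A. DESeq2 passed 2 further Ifit and Ifitm genes in place of 1. Other causes were not tested. No paired analysis was possible because the genotypes share no replicate name. Low counts limit Ifit3b and Mx1 in Pde2A+/+ hearts most.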
